A study of Mus musculus with 32 samples.

Results

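Metabolic RNA labelling with 4-thiouridine (4sU) in the unstressed mouse amygdala was examined by comparing 5 libraries from animals injected with 4sU with 4 libraries from animals injected with the solvent alone. These 9 of the 32 libraries in the series were taken by their titles, as baseline libraries with 4sU or with DMSO. All 9 libraries came from wild type animals. These received a stereotaxic injection into the amygdala, either 100 mM 4sU dissolved in DMSO or DMSO without 4sU. The amygdala of both sides was taken 24 h later, RNA was isolated with Trizol and treated with an alkylating agent in both groups, and the VAHTS Universal V8 kit served for library preparation. The labels' tissue field reads only brain, and the amygdala is named in the protocols. No age or sex is given in the sources used here. Nothing says more about the animals behind the libraries, so a p-value here reflects only the spread between libraries, part of which may be technical. The series also holds amygdala libraries after acute stress (10) and after chronic stress (7), again with 4sU or DMSO, which are used here only where a baseline value is set beside the same contrast in other libraries.

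The uridine analogue 4sU is taken up by cells, phosphorylated, and built into RNA made while it is present. Alkylation of the sulphur then makes reverse transcriptase pair the labelled base with guanine, so that new transcripts carry T-to-C conversions in the reads while older ones do not (the SLAM-seq method). A gene's conversion rate therefore depends on how much of its RNA pool was made after labelling began, and on how much 4sU its cells took up, above a background set by sequencing error, polymorphism and other sources of mismatch, which the DMSO libraries measure.

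The 9 libraries had 16211186 to 17596612 exon counts, and their 3′ UTR tables held 2.18e8 to 2.98e8 covered T positions each. No pair of libraries of the same group agreed within sampling noise over genes (chi-square per degree of freedom 3.65 to 11.2), so each counted as 1 sample. Transcripts of neurons, astrocytes and oligodendrocytes were abundant in all 9 libraries (Camk2a at least 1225, Gfap at least 612 and Mbp at least 3334 CPM, counts scaled to library size), and no markers particular to the amygdala were examined. The numbers that the conversion tables' headers give to the samples form 2 series, one for the 5 baseline and 5 acute-stress 4sU libraries and one for all DMSO libraries and the chronic-stress 4sU libraries. At baseline this division coincides with the injection, and what belongs to 4sU and what belongs to that division cannot be told apart from the baseline libraries alone. Both chronic-stress groups lie in the same series of numbers. Several library measures also differed with it. Reads that fell in 3′ UTR intervals made up 16.9% of reads in baseline 4sU libraries and 18.5% in DMSO libraries on average, and covered T positions per read averaged 34.4 and 37.0. The same 2 measures were 19.4% against 18.7% and 37.1 against 37.2 in the chronic-stress libraries.

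T-to-C conversion was higher in every 4sU library than in every DMSO library. The rate, summed conversions over summed covered T positions of all 3′ UTR intervals, was 0.0546%, 0.0422%, 0.0505%, 0.0477% and 0.0440% in the 5 labelled libraries. It was 0.0264%, 0.0271%, 0.0318% and 0.0246% in the 4 DMSO libraries. The highest DMSO library lay below the lowest labelled library. The means were 0.0478% ± 0.0050 (SD, n = 5) and 0.0275% ± 0.0030 (SD, n = 4), a ratio of 1.74 and a difference of 0.0203 percentage points. The exact two-sided permutation test gave p = 0.0159, the smallest p that 9 libraries split in this way allow. Each library's rate had a 95% interval of at most 0.000296 percentage points to either side, covering counting error only, so nearly all of the spread within a group lies between libraries.

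The share of reads that the tables count as converted was 1.48% ± 0.081 in labelled and 1.02% ± 0.097 in DMSO libraries. Conversions per such read averaged 1.11 ± 0.063 with 4sU, ranging from 1.05 to 1.20, and 0.998 ± 0.010 without, and the groups did not overlap. In 3 of the 4 DMSO libraries the value was below 1, so this read column cannot hold only reads with at least 1 of the conversions counted, and its definition is not given in the sources used here. The labelled group's mean rate was 0.0497% after acute stress and 0.0627% after chronic stress, beside DMSO means of 0.0242% and 0.0250%. The ratios of labelled to DMSO libraries were thus 2.06 and 2.50, and the chronic-stress ratio comes from libraries on one side of the header division. Whether the excess differs between the 3 states was not tested.

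**Figure D1:**
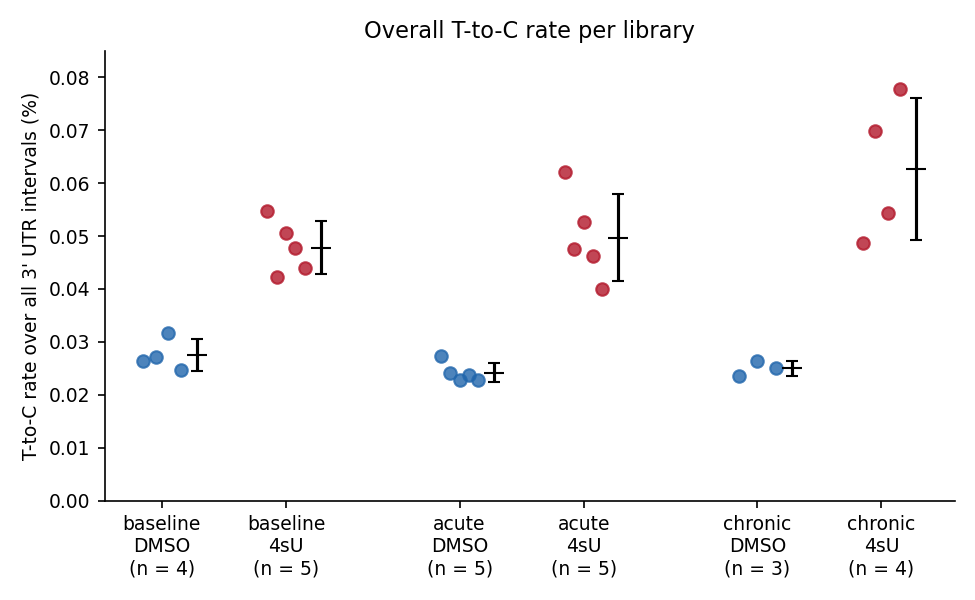
Overall T-to-C conversion rate (percent of covered T positions in 3′ UTR intervals) of each amygdala library, by state and injection, with the group mean and SD. At baseline the 5 labelled libraries lie between 0.0422% and 0.0546% and the 4 DMSO libraries between 0.0246% and 0.0318%.

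Per 3′ UTR interval, a minority passed the test for a conversion excess. Of 9704 intervals with at least 2000 covered T positions on average, 733 (7.55%) had a higher rate with 4sU and 17 (0.175%) a lower one, by edgeR's quasi-likelihood test at a Benjamini-Hochberg adjusted p under 0.05. At an unadjusted p under 0.05, 1472 intervals differed. The median rate over intervals was 0.0290% with 4sU and 0.0259% without, and 59.1% of intervals had a positive difference. Among the called intervals the difference ran from 0.0141 to 0.402 percentage points, with a median of 0.0498. All 5 labelled libraries lay above all 4 DMSO libraries in 708 of the 9704 intervals (7.3%).

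The difference in conversion rate was largest in the most covered 3′ UTRs. With 1 interval kept per gene, excess conversions were summed over all genes, negative values included. The 10 genes with the most excess conversions held 16.4% of this net sum on 4.07% of the covered T positions. The top 100 held 51.6% on 14.9%. These genes were ranked by the same excess, so their shares of it are high in part by construction. The top 10 included Mbp, Scd2, Slc1a2, Gpm6b, Camk2a, Snap25, Arf3 and Gfap, genes of myelin, lipid synthesis, astrocytes and neurons. Coverage sets how small a difference can be detected, and it also sorted the rates themselves. Of the 8484 genes with 1 interval each, 623 (7.34%) had a higher rate, and 14 (0.165%) a lower one. In 5 equal groups of genes by covered T positions, from low to high, the number with a higher rate was 9, 18, 21, 80 and 495, the last being 29.2% of its group. The pooled rate with 4sU was 0.0346%, 0.0331%, 0.0344% and 0.0349% in the lower 4 groups and 0.0548% in the top one. The pooled DMSO rate went the other way, from 0.0316% in the lowest group to 0.0266% in the top one. The difference in rate was thus larger in the top group, where it is also better resolved. In 5 groups by 3′ UTR length or by the share of T in the interval, 6.35% to 8.61% of genes were called higher.

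**Figure D2:**
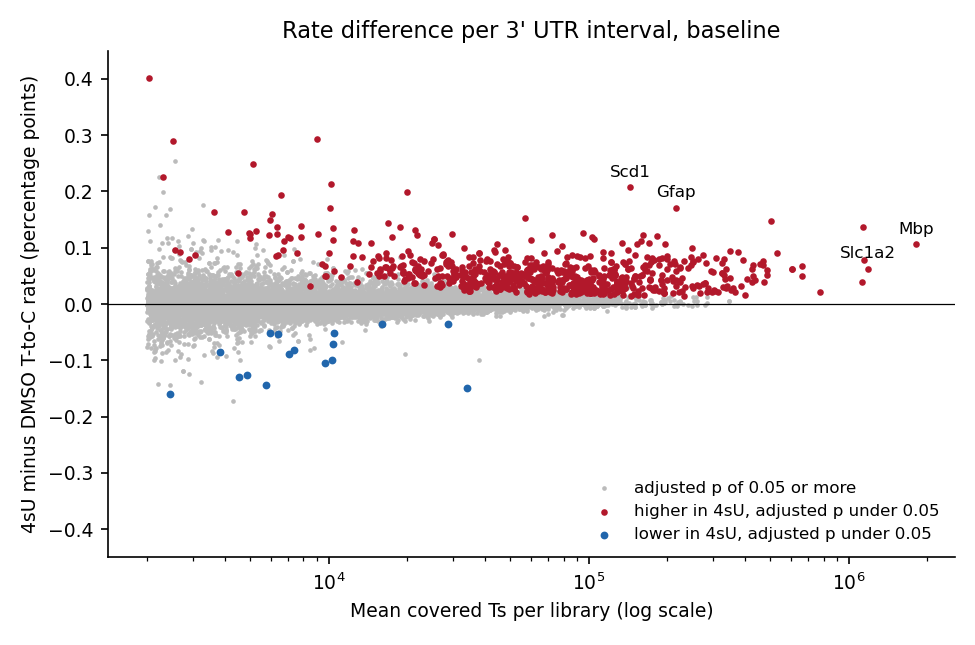
Difference in T-to-C rate, 4sU minus DMSO (percentage points), against mean covered T positions per library (log axis) for 9702 of the 9704 tested 3′ UTR intervals, the other 2 lying outside the vertical axis. Called intervals are marked. With 1 interval per gene, 495 of the 623 with a higher rate lie in the group of genes with the most coverage.

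Transcripts of myelin and of astrocytes had large differences in rate at high coverage. Mbp, encoding myelin basic protein, had rates of 0.161%, 0.112%, 0.144%, 0.152% and 0.0993% with 4sU. Its DMSO rates were 0.0259%, 0.0257%, 0.0332% and 0.0238%, with no overlap. Pooled over libraries these rates rested on 9431 and 2525 conversions, and the log2 ratio was 2.30 ± 0.18 (SE; adjusted p = 5.2e-32). The fifth labelled library had the lowest rate of its group.

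Gfap, the intermediate filament protein of astrocytes (3′ UTR interval chr11:102887336-102888675, mm10), had rates of 0.257%, 0.181%, 0.215%, 0.181% and 0.145% with 4sU. The DMSO rates were 0.0274%, 0.0246%, 0.0346% and 0.0170%, all far below. Its log2 ratio of rates was 2.92 ± 0.22 (adjusted p = 4.6e-37). The fatty acid desaturase gene Scd1 (chr19:44394450-44397917) was higher still, at 0.373%, 0.168%, 0.202%, 0.287% and 0.157% with 4sU. Scd1 had 0.0283%, 0.0218%, 0.0285% and 0.0278% in the DMSO libraries, and a log2 ratio of 3.15 ± 0.23 (adjusted p = 3.3e-39). The first labelled library was the highest of its group for all 3 of these genes, as it was in the overall rate.

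Most genes of the astrocyte list had a conversion excess: 11 of its 15 measured members had a higher rate, against 7.34% of all genes with 1 interval each. The list's median of 75921 covered T positions lies in the group with the most coverage, where 29.2% of genes had one. Pooled over its members the rate was 0.0771% to 0.119% in labelled and 0.0230% to 0.0294% in DMSO libraries, a ratio of 3.79. Slc1a3, an astrocyte glutamate transporter, had pooled rates of 0.145% and 0.0218% (log2 ratio 2.73 ± 0.23, adjusted p = 1.3e-28). The other main astrocyte glutamate transporter, Slc1a2, had 0.0880% and 0.0252% (adjusted p = 3.8e-19). Aldoc, the brain form of aldolase, had 0.157% and 0.0344% (adjusted p = 1.8e-15). Of the 6 measured genes of reactive glia and injury 2 had a higher rate, Gfap and Serpina3n, a protease inhibitor.

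In the oligodendrocyte list 5 of 18 members had a higher rate, among them Mbp, Mal, Mobp and Apod. Of all genes with 1 interval each, 7.34% had one. The list's median of 34910 covered T positions lies in the group with the most coverage, near its lower bound of 32455. In that group 29.2% of all genes were called higher, and in the group below it 4.71%. Its pooled ratio of 4.65 rested on abundant members, since the median difference over its 18 members was 0.0046 percentage points, near the 0.0038 of all genes. Apod, a secreted lipid carrier, had pooled rates of 0.256% and 0.0424% (log2 ratio 2.54 ± 0.43, adjusted p = 1.7e-07), and the myelin proteolipid Mal 0.104% and 0.0273% (adjusted p = 3.6e-16). Cnp, which encodes another abundant myelin protein, did not pass the test at 0.0290% and 0.0281% on 104148 covered T positions per library (adjusted p = 0.99). In the chronic-stress libraries Cnp stood at 0.0837% with 4sU and 0.0240% without. In the list of oligodendrocyte precursors 2 of 12 had a higher rate (Bcas1 and Ptprz1), and Gpr17, a receptor of differentiating precursors, had a lower one, a call lost in 7 of the 9 fits with 1 library left out.

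Some neuronal and synaptic transcripts had higher rates as well. Of 20 presynaptic genes 14 had a higher rate, where 29.2% of all genes did in the group with the most coverage, in which the list's median of 101526 covered T positions lies, with pooled rates of 0.0743% to 0.124% with 4sU and 0.0314% to 0.0373% without. Snap25, a SNARE protein of vesicle fusion, had rates of 0.159%, 0.105%, 0.132%, 0.127% and 0.101% with 4sU. Its DMSO rates lay between 0.0326% and 0.0355%, so the groups were clearly separate (log2 ratio 1.85 ± 0.20, adjusted p = 9.1e-19). Syn1, a vesicle phosphoprotein, had pooled rates of 0.115% and 0.0300% (adjusted p = 2.1e-12). Of 24 postsynaptic genes, with a median of 64622 covered T positions in the same coverage group, 5 had a higher rate, a smaller share than those 29.2%. Among them was Camk2a, a kinase of excitatory synapses, at 0.102% and 0.0337% (log2 ratio 1.58 ± 0.19, adjusted p = 3.5e-14).

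In the list of GABAergic neuron markers 3 of 13 had a higher rate, as did 7.34% of all genes with 1 interval each. All 13 had a positive difference, which 59.1% of all intervals had. Gad1, which makes GABA, had pooled rates of 0.0989% and 0.0246% (log2 ratio 1.98 ± 0.23, adjusted p = 1.9e-15). Gad2, the other GABA-synthesizing enzyme, also passed the test. Of 11 glutamatergic markers 2 passed, Camk2a and the vesicular glutamate transporter Slc17a7.

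Among the 10 intervals with the most covered T positions, which include Mbp, Slc1a2 and Camk2a, the rates varied several-fold. Scd2, the desaturase of brain lipid synthesis, had pooled rates of 0.103% and 0.0251% (adjusted p = 3.0e-24). Kif5a, a neuronal kinesin motor, stood lower at 0.0478% and 0.0271% and still passed (log2 ratio 0.83, adjusted p = 0.00042). The labelled rate therefore varied among the most abundant 3′ UTRs.

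One well-covered group had rates close to background. Of 16 markers of striatal medium spiny neurons none passed the test in edgeR or DESeq2 (1 was higher at an unadjusted p under 0.05). Their median of 37326 covered T positions lies in the group with the most coverage, near its lower bound of 32455. In that group 29.2% of all genes were called higher, and in the group below it 4.71%. The pooled rate of these striatal neuron markers was 0.0266% to 0.0330% with 4sU and 0.0254% to 0.0333% with DMSO (ratio 1.02). Pde10a, a phosphodiesterase of these neurons, had 280948 covered T positions per library and rates of 0.0183% to 0.0298% with 4sU and 0.0216% to 0.0315% without. Ppp1r1b, which encodes DARPP-32, had pooled rates of 0.0371% and 0.0446%. The pooled rates of the labelled and DMSO libraries overlapped. After chronic stress the list's pooled ratio was 1.38 and after acute stress 1.37, beside ratios over all genes tested of 2.56 and 2.08.

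Immediate early genes and glucocorticoid-responsive genes, whose transcripts are known for fast turnover or fast induction, had no member past the test (0 of 18 in each list with edgeR and with DESeq2, and 0 at an unadjusted p under 0.05). Their median coverage was only 7191 and 5446 T positions, and in the group of genes with such coverage 1.06% were called higher, so a count of 0 is near the share of all genes there. The pooled ratio of labelled to DMSO libraries was 1.07 for the immediate early genes and 0.918 for the glucocorticoid-responsive genes. Arc, an activity-induced synaptic regulator, had pooled rates of 0.0320% and 0.0236% (adjusted p = 0.93). Egr1, an activity-induced transcription factor, had 0.0177% and 0.0204% (adjusted p = 0.95). The rate of Nr4a1, a nuclear receptor induced by activity, rested on 4 and 2 conversions, and that of the growth factor gene Bdnf on 2 and 2, too few for a precise rate. Klf9, a glucocorticoid-induced transcription factor with 98756 covered T positions, had 0.0233% and 0.0235%, and Homer1, a postsynaptic scaffold gene, 0.0237% and 0.0230%. Fos, Npas4 and Malat1 were not among the tested intervals. The pooled ratios of the 2 lists were 0.984 and 1.14 after acute stress and 1.5 and 1.42 after chronic stress.

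The other lists had few called members, where 7.34% of all genes with 1 interval each were called higher. Of 11 genes of uridine uptake and salvage none passed with edgeR, although all 11 had a positive difference. Nor did any of 10 nucleolar and rRNA processing genes, 12 p53 and DNA damage genes, 6 interferon-stimulated genes, 6 ribosomal protein genes, 3 markers of hypothalamus and thalamus or 2 genes of the list of Y-linked genes and Xist. At an unadjusted p under 0.05 edgeR had 1 higher member in each of the first 3 of these lists and 2 among the ribosomal protein genes, and DESeq2 called none. The microglial list had 1 of 10 (Csf1r, the microglial growth factor receptor), endothelial and mural cells 1 of 12 (Rgs5), choroid plexus and ependyma 2 of 11 (Enpp2 and Ttr), and the meninges 1 of 4 (Igf2). Heat shock genes had 1 of 10 (Hsp90aa1), as did oxidative phosphorylation genes (Sdha). The median coverage of the microglial and vascular lists was 4977 and 4952 T positions, which limits the size of difference that could be detected there. Csf1r had pooled rates of 0.105% and 0.0138% (log2 ratio 2.85 ± 0.68, adjusted p = 0.00057), but the fourth labelled library had 0.294%, and without it the adjusted p was 0.16.

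**Figure D3:**
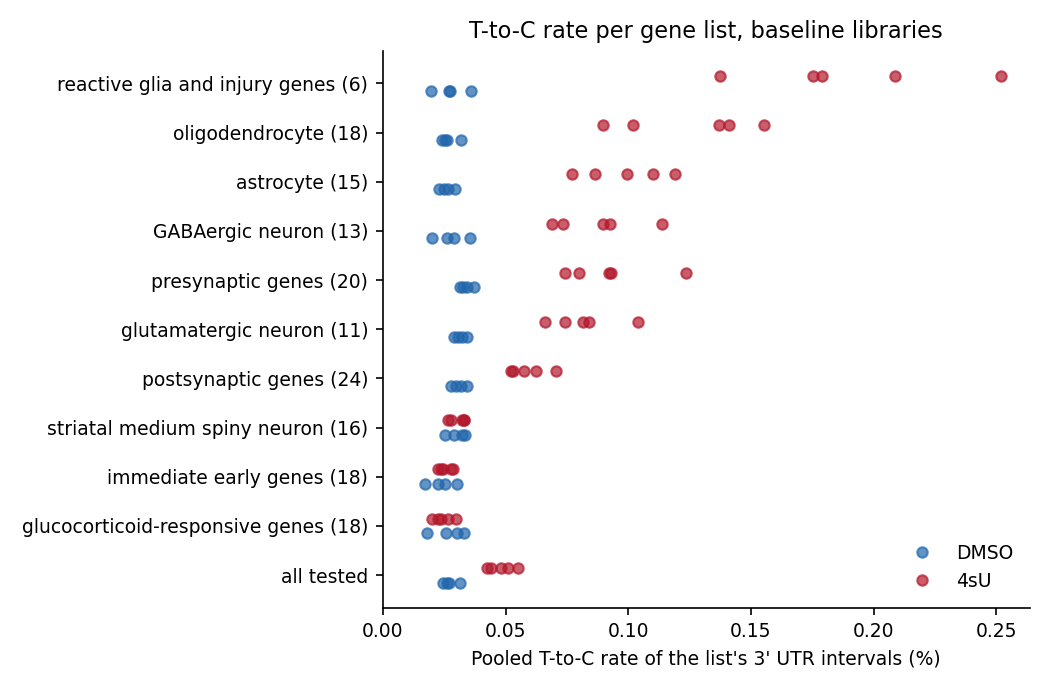
Pooled T-to-C rate (percent) of gene lists in each baseline library, with the 5 labelled and 4 DMSO libraries as separate points. Lists of astrocytes, oligodendrocytes and presynaptic genes lie well above their DMSO libraries, and the striatal, immediate early and glucocorticoid lists overlap them.

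Several of the 10 largest differences in rate among called intervals came from few conversions. Fcer1g, a signalling chain of immune receptors on microglia, had pooled rates of 0.443% and 0.0416% from 39 and 4 conversions (log2 ratio 3.19 ± 0.78, adjusted p = 0.00087), and all 4 DMSO conversions lay in the second DMSO library, without which the DMSO group had none. Ctss, a lysosomal protease of microglia, had 0.313% and 0.0228% from 30 and 3 conversions; its groups overlapped, and without the fifth labelled library its adjusted p was 0.064. Lhx8, a transcription factor of forebrain cholinergic neurons, had 16 conversions against 1. The fourth labelled library stood at 1.54% for Lhx8 and the others at 0 to 0.0925%, and without that library the adjusted p was 0.71. Trnt1, which adds the CCA end to tRNAs, had 0.523% and 0.229%, so its DMSO rate was already far above background. The Trnt1 rates with 4sU and DMSO were 0.476% and 0.209% after acute stress. After chronic stress they were 0.248% and 0.273%, with no excess in the labelled libraries. Ociad1, an endosomal and mitochondrial protein gene, had 0.466% and 0.266% (adjusted p = 0.0087), a call that was lost without the third DMSO library (adjusted p = 0.051). Its DMSO rate, too, was far above the 0.0259% median of all intervals. Another, better covered interval of Ociad1 had 0.0659% and 0.0338% and did not pass (adjusted p = 0.070). The immune genes Lamp3 and H2-D1 had 0.340% against 0.0906% and 0.234% against 0.0396%. Apod, Scd1 and Gfap, described above, completed the 10.

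The 17 intervals with a lower rate in 4sU all had DMSO rates above the 0.0259% median of all intervals, from 0.0437% to 1.30%. Snx22, an endosomal sorting nexin gene, had pooled rates of 0.533% with 4sU and 1.30% with DMSO (log2 ratio -1.28 ± 0.19, adjusted p = 1.4e-09). Its DMSO libraries had 1.40%, 1.66%, 1.68% and 0.424%, so 1 of the 4 lay apart. With all 6 amygdala groups in 1 fit the adjusted p of Snx22 was 0.084, and by the tables' converted reads its log2 ratio was 0.35 and did not pass. Its rates were 0.550% and 1.15% after acute stress and 1.24% and 1.17% after chronic stress. The membrane protein gene Tmem150b had the same pattern, 0.132% against 0.282% at baseline and 0.308% against 0.270% after chronic stress. Both intervals of the stathmin gene Stmn4 were lower, at 0.0229% against 0.127% and 0.0234% against 0.122%. The first of these 2 intervals lies within the second, so their values are not independent. Both calls were lost without the third DMSO library (adjusted p = 0.070 and 0.071). Pcid2, a subunit of an mRNA export complex, had 0.0136% and 0.144% and lost its call without the fourth DMSO library (adjusted p = 0.38). Apoe, the main lipid carrier of the brain, had 0.114% and 0.212% and did not pass (adjusted p = 0.44).

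The chronic-stress libraries, which share no sample with the baseline ones and lie on one side of the header division, give the same measure in other animals. There 1397 of the 9704 intervals (14.4%) had a higher rate with 4sU and 9 (0.0927%) a lower one. Of the 733 intervals higher at baseline, 725 (98.9%) had a positive difference after chronic stress, against 74.8% of all intervals tested. Of the same 733, 654 also passed the test there, 89.2% of the baseline calls and 46.8% of the chronic-stress calls. Intervals called at baseline had a median of 68071 covered T positions, against 11233 for all intervals tested. The 74.8% is thus not a reference of like coverage, and such a reference was not tested for either share. Mbp had pooled rates of 0.190% and 0.0260% in the chronic-stress libraries, Gfap 0.240% and 0.0249%, and Scd1 0.298% and 0.0198%. Of the 17 intervals lower at baseline, 0 were lower after chronic stress by the test, and 14 had a positive difference.

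Expression was compared in the exon counts of the same 9 libraries, to see what differed between labelled and unlabelled tissue besides conversion. A majority of genes passed the test for a difference (57.7%). Transcripts of myelin and of blood vessels were lower with 4sU, and many synaptic transcripts and markers of excitatory and inhibitory neurons were higher. Of 15607 genes tested with edgeR's quasi-likelihood test, 4511 (28.9%) were higher and 4491 (28.8%) lower at an adjusted p under 0.05. Most changes were small: the median absolute log2 fold change of the called genes was 0.45, and 148 higher and 287 lower genes passed 2-fold. In 7334 genes (47%) the 2 groups did not overlap. In bulk tissue, fewer cells of a type and less RNA per cell cannot be told apart.

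Few genes differed with 4sU after chronic stress. There 4 genes (0.0249%) were higher and 18 (0.112%) lower of 16096 tested (0.137% in all), with 1475 at an unadjusted p under 0.05. After acute stress, where the labelled libraries carry the same series of header numbers as the baseline ones, 3756 (23.5%) were higher and 3969 (24.8%) lower (48.3% of 15995 in all). A direct test of the difference in the 4sU effect between baseline and chronic stress called 6121 of 16096 genes (38%). Of the 9002 genes called at baseline, 5822 differed in that test, 11 were called after chronic stress, and their median absolute log2 fold change there was 0.069. The same test between baseline and acute stress called 0 genes with edgeR (916 at an unadjusted p under 0.05), and 20 with DESeq2. The stress state, the animals and the header division all differ between baseline and chronic stress, and their parts in the difference cannot be told apart.

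The baseline differences were ordered by the base composition of the 3′ UTR. In 5 groups of genes by the share of T in the 3′ UTR interval, from low to high, the median log2 fold change was 0.33, 0.18, 0.01, -0.19 and -0.36. The share of genes called higher was 56.8% in the lowest group and 8.43% in the highest, and the share called lower was 4.99% and 62.2%. Across 13944 genes of the same 9 libraries, Spearman's rho between the share of T and the fold change was -0.53, a description over genes that are not independent replicates. After acute stress the medians of the 5 groups of genes ran from 0.33 to -0.36, and after chronic stress they lay between -0.01 and 0.01, with a rho of -0.03. The read-weighted share of T in the covered 3′ UTR intervals was 28.5% in baseline labelled and 29.4% in DMSO libraries, and 29.4% in both groups after chronic stress. With the share of T added to the scaling, 3705 genes were higher and 3177 lower of 13927. The part of base composition in any single gene's difference was not tested.

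**Figure D4:**
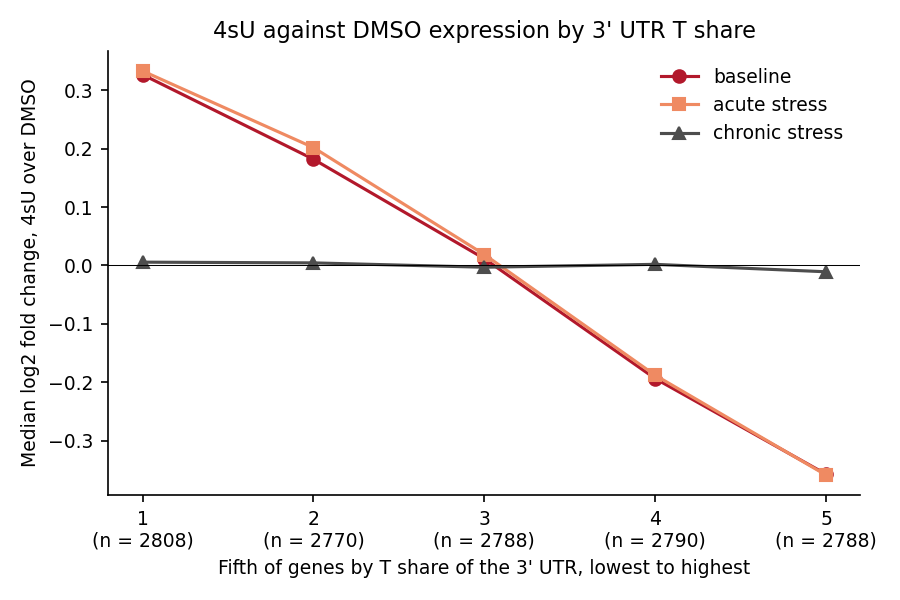
Median log2 fold change of exon counts, 4sU over DMSO, for 5 groups of genes by the share of T in the 3′ UTR, at baseline, after acute stress and after chronic stress. Baseline medians fall from 0.33 in the lowest group to -0.36 in the highest, while the chronic-stress medians lie near 0.

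Oligodendrocyte genes were mostly lower. Of 18 members 15 fell and none rose, where 28.8% of all genes fell, with a median log2 fold change of -0.83 where the median over all genes tested was -0.01. The list's mean log2 CPM was 7.25 to 7.82 in labelled and 8.17 to 8.57 in DMSO libraries, with no overlap. After chronic stress its median was 0.32, and the difference between the 2 states passed for 15 of the 18. Its median share of T, 26.9%, was below the 29.5% of all genes tested, and 16 members were lower with the share of T in the scaling.

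Mbp had 3334, 3979, 4581, 3526 and 3907 CPM (exon counts scaled to library size, as in edgeR) in the labelled libraries. Its DMSO libraries had 5890, 6542, 5633 and 5253 CPM, all above the labelled ones. The log2 fold change was -0.59 ± 0.09 (adjusted p = 7e-05). After chronic stress it was 0.39, and the difference between the states was -0.97 ± 0.14.

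Tspan2, a tetraspanin of myelin, had 98.0, 120, 131, 114 and 116 CPM with 4sU. Its DMSO libraries had 340, 354, 319 and 292 CPM, above every labelled library (log2 fold change -1.50 ± 0.07, adjusted p = 1.3e-09). After chronic stress Tspan2 was higher with 4sU, at 475 and 324 CPM (log2 fold change 0.54, adjusted p = 0.020). Mal fell by 1.21 on the log2 scale and Apod by 0.78. Mbp, Mal and Apod thus had a higher conversion rate and a lower level in the same libraries, while Tspan2 did not pass for its rate (0.0315% and 0.0190%, adjusted p = 0.12, or 0.030 without the third labelled library).

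Endothelial and mural genes were also mostly lower: 12 of 18 fell and 1 rose, with a median of -0.50. Of all genes tested 28.8% fell and 28.9% rose. Slco1a4, an organic anion transporter of the blood-brain barrier, fell from 82.8 ± 2.96 to 31.2 ± 3.53 CPM (log2 fold change -1.41 ± 0.07, adjusted p = 5.4e-10). Flt1, a VEGF receptor, fell by 0.88. The mean log2 CPM of this list was 4.36 to 4.56 with 4sU and 4.90 to 5.01 with DMSO. Of 15 meningeal genes 7 fell and 1 rose, among the falls the matrix proteoglycan gene Ogn, from 7.84 ± 0.42 to 2.19 ± 0.66 CPM. Of 16 genes of choroid plexus and ependyma 7 fell and 2 rose (1 rose in 7 of the 9 fits with 1 library left out), and of 7 red blood cell genes the 1 that passed the filter (Alas2, of haem synthesis) fell, a call lost without the first DMSO library.

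Astrocyte and microglial genes moved in both directions, as did all genes tested (28.9% higher and 28.8% lower). In the astrocyte list 4 of 16 rose and 7 fell, with a median of -0.03. Aqp4, the water channel of astrocyte endfeet, fell from 252 to 124 CPM (log2 fold change -1.02), while Aldoc rose by 0.46. Apoe rose by 0.51, from 1479 ± 81.8 to 2101 ± 80.6 CPM. In the microglial list 3 of 16 rose and 5 fell. P2ry12, a purine receptor of resting microglia, fell by 0.77 and Csf1r rose by 0.35, a call that was lost with the share of T in the scaling. Of 20 measured genes of reactive glia and injury 4 rose (2 to 6 with 1 library left out) and 4 fell, and Gfap did not pass (log2 fold change 0.30, adjusted p = 0.24). Of 26 interferon-stimulated and RNA sensing genes 0 rose and 7 fell, the latter a share near the 28.8% of all genes. The lower members included Eif2ak2, a kinase activated by double-stranded RNA (log2 fold change -1.08), and Ifi44, which fell by 1.71 at baseline with a value of -1.14 after chronic stress.

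The glutamatergic and GABAergic lists were mostly higher, where 28.9% of all genes rose and 28.8% fell. Of 16 glutamatergic markers 9 rose and 0 fell (median 0.66), and of 16 GABAergic markers 10 rose and 3 fell (median 0.41). Their mean log2 CPM was 5.40 to 5.78 with 4sU against 4.96 to 5.39 with DMSO for the glutamatergic list, and 6.01 to 6.09 against 5.72 to 5.82 for the GABAergic one. Neither pair overlapped, though the glutamatergic ranges nearly met. In DMSO libraries after acute and chronic stress the glutamatergic list had 3.56 to 5.75 and 3.91 to 5.56. The same libraries had 5.58 to 6.10 and 5.70 to 5.72 for the GABAergic list. The GABAergic list had a median share of T of 27.7%, below the 29.5% of all genes tested. In the group of genes with such a share the median log2 fold change was 0.18. The glutamatergic list had 30.5%, in a group with a median of -0.19. The part of base composition in these rises was not tested. Slc32a1, the vesicular transporter of GABA, rose from 271 ± 13.7 to 468 ± 46.6 CPM (log2 fold change 0.79 ± 0.07). The neuropeptide gene Sst rose from 176 to 311 CPM.

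Pvalb, the calcium-binding protein of fast-spiking interneurons, moved the other way. It had 19.2, 19.3, 19.5, 14 and 16.8 CPM with 4sU and 45.7, 44.2, 43.9 and 43.2 CPM with DMSO (log2 fold change -1.32 ± 0.08, adjusted p = 3.5e-09). Both directions thus occurred among markers of inhibitory neurons. Camk2a rose by 0.64, from 1350 ± 142 to 2108 ± 217 CPM. Striatal markers gave 0 rises and 1 fall among 16, where 28.9% of all genes rose and 28.8% fell. In that list 1 DMSO library stood apart with a mean log2 CPM of 7.71, the other 3 reaching at most 7.15.

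Of 20 presynaptic genes 16 rose and 1 fell (median 0.32), and of 24 postsynaptic genes 12 rose and 7 fell (median 0.29). The median share of T was 26.7% in the presynaptic and 27.4% in the postsynaptic list, below the 29.5% of all genes tested. In the group of genes with such shares the median log2 fold change was 0.18. The part of base composition in the rises of these lists was not tested. Syn1 rose from 366 to 586 CPM, Rab3a, a GTPase of synaptic vesicles, by 0.63, and Grin1, the obligate NMDA receptor subunit, from 286 to 451 CPM. Homer1 fell by 0.58, a call lost with the share of T in the scaling. Snap25 rose by 0.13 (adjusted p = 0.027), a call that was lost in 8 of 18 alternatives, among them 3′ UTR reads in place of exon counts, the acute-stress libraries in the fit and 4 of the fits with 1 library left out.

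Immediate early genes were more often higher than lower: 14 of 30 rose and 1 fell, with a median of 0.39. Of all genes tested 28.9% rose and 28.8% fell. Jund, an AP-1 subunit, rose from 140 to 224 CPM, and Nptx2, a synaptic pentraxin, by 1.06. The best known members were less clear. Fos (log2 fold change 0.51, adjusted p = 0.18), Arc (0.62, adjusted p = 0.10, or 0.027 without the fourth labelled library), Egr1 (0.29, adjusted p = 0.32) and Nr4a1 (0.41, adjusted p = 0.15) did not pass. Npas4 (0.52, adjusted p = 0.011) and Bdnf (0.49, adjusted p = 0.013) passed with overlapping groups. The call for Npas4 was lost with 3′ UTR reads in place of exon counts, with the acute-stress libraries in the fit and with the share of T in the scaling. For Bdnf the fold change from 3′ UTR reads was -0.05. In the glucocorticoid-responsive list of 24 genes there were 5 rises and 4 falls, or 9 and 2 without the fourth DMSO library.

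Other lists were mixed, and the counts of some lay near the shares of all genes called higher (28.9%) and lower (28.8%). Ribosomal protein genes gave 17 rises and 10 falls among 45, with Rps16 up by 0.75, and oxidative phosphorylation genes 20 and 13 among 43, with Cox5a up by 0.69. Genes of the nucleolus and rRNA processing gave 10 and 6 among 20, and genes of uridine uptake and salvage 10 and 5 among 19, with Cad, which starts pyrimidine synthesis, up by 0.63. Heat shock and unfolded protein genes gave 5 and 6 among 20, with the endoplasmic reticulum chaperone Hsp90b1 down from 407 to 282 CPM. Genes of p53 and DNA damage gave 3 and 4 among 18, precursors of oligodendrocytes 2 and 6 among 12, and markers of hypothalamus and thalamus 3 and 3 among 14. Nuclear long noncoding RNAs gave 1 and 10 among 14, with Snhg11 falling by 0.79, while Malat1 did not pass (-0.01, adjusted p = 0.97).

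All 4 measured genes of the list of Y-linked genes and Xist fell with 4sU. Ddx3y, a Y-linked RNA helicase, fell from 108 ± 2.46 to 49.9 ± 7.11 CPM (log2 fold change -1.11 ± 0.08). Its 3′ UTR interval has a T share of 35.8%, and its fold change after chronic stress was 0.01.

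Among genes with at least 1 CPM and groups that did not overlap, Fibcd1, a receptor for acetylated sugars that is also known as a marker of hippocampal CA1 neurons (chr2:31813290-31846005), had the largest rise. It had 170, 133, 78.4, 174 and 96.1 CPM with 4sU and 26.8, 13.6, 24.5 and 12.3 CPM with DMSO (log2 fold change 2.75 ± 0.37, adjusted p = 0.00040). The spread within the labelled group was more than 2-fold, yet its lowest library was above every DMSO library. Nptxr, a neuronal pentraxin receptor, rose from 23.4 ± 9.04 to 91.5 ± 14.5 CPM, and Dio3, which inactivates thyroid hormone, from 2.81 to 10.2 CPM. The transcription factor gene Zbtb20 rose from 1.43 to 4.85 CPM. Avp, encoding vasopressin, rose from 2.06 to 7.36 ± 4.56 CPM (adjusted p = 0.0092). For Avp the log2 fold change was 1.83 at baseline and 1.6 after chronic stress, where it did not pass (adjusted p = 0.52), and the baseline call was lost without the DMSO libraries 3 and 4.

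Mif, a cytokine with tautomerase activity (chr10:75859353-75860277), had the tightest values among the large rises. It had 201, 204, 201, 210 and 200 CPM with 4sU and 74.7, 73.0, 68.4 and 76.8 CPM with DMSO (log2 fold change 1.47 ± 0.05, adjusted p = 1.0e-11). The chronic-stress libraries had 74.2 CPM with 4sU and 71.7 CPM without, both at the level of the baseline DMSO libraries. The rises of Rtn4rl2, Muc6, Ntn5, Fdx2, Adra1d and Zfp853 lay between 1.47 and 1.9. The calls of Adra1d and Ntn5 were lost with the acute-stress libraries in the fit and against a 1.5-fold threshold. That of Adra1d was also lost with 3′ UTR reads and with a replicate block.

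The largest fall was that of Gpr174, a lymphocyte receptor (log2 fold change -2.25 ± 0.31). Others were those of Slc38a11, a putative amino acid transporter (-2.01), and Lsm5, part of the RNA-binding Lsm ring (-1.89). Rpl22l1, a paralogue of a ribosomal protein, fell from 45.2 ± 6.26 to 13.5 ± 1.65 CPM (log2 fold change -1.74 ± 0.10, adjusted p = 3.0e-09). Ogn and Ifi44, given above, and Aspn, Tc2n, Iigp1, Akr1c14, Srgn and Pln completed the 12 largest. How reads shared between Rpl22l1 and near-identical copies were counted is not given in the sources used here.

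**Figure D5:**
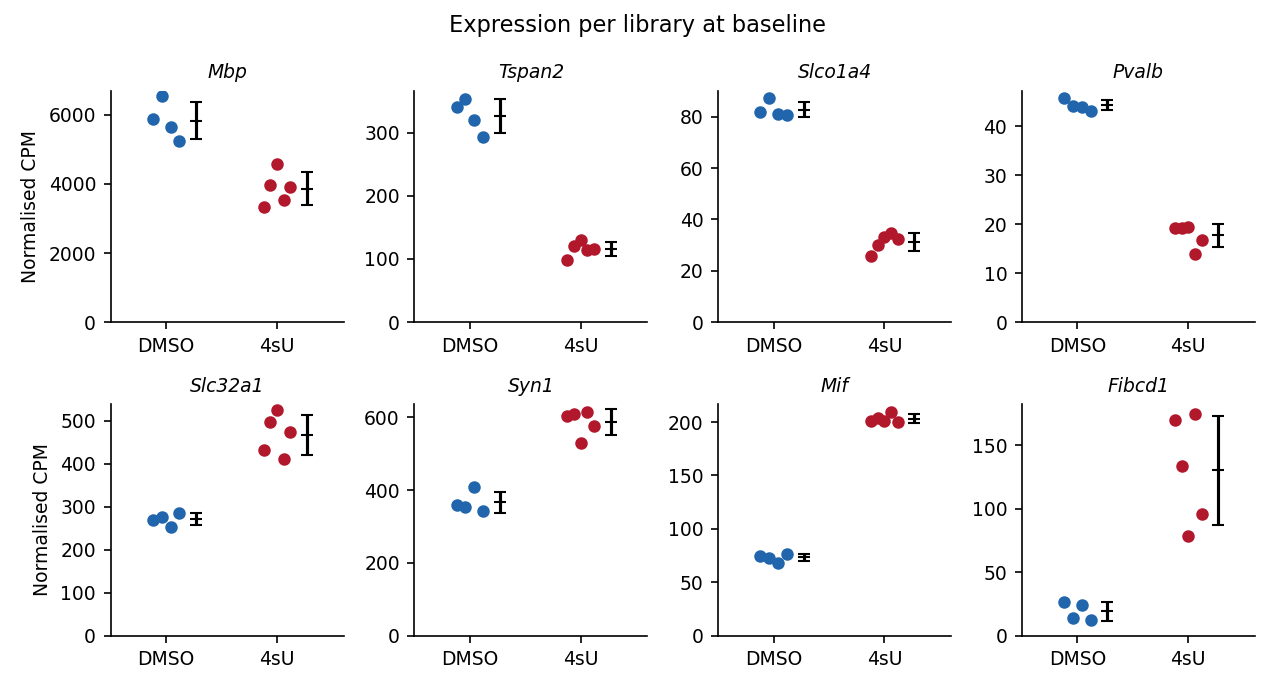
CPM (linear axes from 0) of 8 genes in each baseline library, with 4sU and DMSO libraries as separate points and bars for the mean and SD of each group. Mif, Fibcd1, Syn1 and Slc32a1 lie higher in all 5 labelled libraries, and Mbp, Tspan2, Slco1a4 and Pvalb lie lower in all 5.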

How the data were processed

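Conversion in 3′ UTRs and gene expression were taken from tables the authors deposited for 26 amygdala libraries, of which the 5 with 4sU and 4 with DMSO at baseline were compared, and those after stress were used for reference. Exon counts per gene symbol were deposited as whole numbers with no normalization, for 25239 genes. Tools named in the submitters' processing notes are cutadapt 3.1, HISAT2 2.1.0, SAMtools 1.9, featureCounts 2.0.1 and the mm10 build. The authors' conversion tables come from slamdunk 0.4.3, as the headers state. For 23996 3′ UTR intervals they hold deposited counts of T positions covered, of conversions on them, and of all and converted reads. Per the file headers the rate is a fraction of covered T positions, and a CPM column scales reads to the library. The fraction recomputed from the counts differed by at most 4.99e-08. For strand, base quality and variant filter, settings are not given in the sources used, and overlapping, antisense and paralogous genes are uncertain. Interval length and T content are also given per the file headers.

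The test of conversions was edgeR's (version 4.0.16, R 4.3.3; robust quasi-likelihood, two-sided, Benjamini-Hochberg) with log coverage of T positions as the offset, over intervals with at least 2000 covered T positions on average. Exon counts were tested the same way with TMM scaling and filterByExpr. The overall rate had an exact permutation test over libraries in SciPy 1.17.1. CPM printed for expression were computed from exon counts, and a list's mean log2 CPM has 1 CPM added. The baseline edgeR tests of conversion and expression and the baseline minus chronic-stress test were checked on simulated data. The planted changes were in well-covered intervals and genes. The permutation test, the baseline minus acute-stress test and the chronic-stress conversion test were not checked in this way. Alternatives were DESeq2 1.42.0, other coverage minimums, reads in place of conversions, 3′ UTR reads, joint fits, each library left out and a replicate block. A scaling with the share of T, a test against 1.5-fold, 1 interval per gene and the joint removal of 2 DMSO libraries were added after seeing the data.

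The comparison and the 28 gene lists were chosen with earlier results of these data known. Named genes are the 10 largest called excesses, the 10 most covered intervals, up to 5 lower intervals, 12 fixed genes, the 12 largest rises and falls in expression with at least 1 CPM and groups that did not overlap, and up to 3 members per list with the smallest p. Gad1, Slc1a3, Aldoc, Mal, Syn1, Csf1r, Cnp, Tspan2, Pde10a, Ppp1r1b, Klf9 and Homer1 were chosen for their conversion values after these were seen. A few genes that the rule names are not reported here. The cortex libraries were not used here. The lists of mitochondrially encoded and replication-dependent histone genes had no member that passed the filter on low counts.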

Additional observations from a re-analysis of the deposited data

Results flagged for a closer look

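Single libraries stood apart within their group by Dixon's test at the 95% level, which by chance picks out about 1 in 20 groups, and no cause was tested. In the third DMSO library covered T positions per read were 36.7 and the read-weighted share of T was 29.3%, the lowest of its group, Arc was lowest at 40.3 CPM, and Slc38a11 was highest at 3.45 CPM. In that library the conversion rate of Nr4a1 was 0.0663% and that of the 2 overlapping Stmn4 intervals 0.269% and 0.256%. The fifth labelled library had 0.0959% and 0.0899% in the same Stmn4 intervals and, averaged over the oxidative phosphorylation list, a log2 CPM of 6.40.

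The second DMSO library stood apart in the rates of Fcer1g (0.176%), Lhx8 (0.0238%) and Scd1 (0.0218%) and in the endothelial list (mean log2 CPM 4.90). The fourth labelled library stood apart in the rates of Lhx8 (1.54%) and Csf1r (0.294%), and the second labelled library in the pooled rate of interferon-stimulated genes (0.0402%). The first DMSO library had 704 CPM of Aldoc. The fourth DMSO library had 86.0 CPM of Cox5a and mean log2 CPM values of 7.71 over striatal and 3.39 over interferon-stimulated genes. Each of these values sits beside others of its gene or list that lay close together.

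The 4sU effect on expression differed between baseline and chronic stress for 6121 genes by edgeR's interaction test. Among the genes named here the log2 difference, baseline minus chronic stress, was positive for Fibcd1 (2.61), Nptxr (2.21), Dio3 (1.96), Mif (1.45), Nptx2 (0.98), Sst (0.97), Rps16 (0.87), Camk2a (0.85) and Slc32a1 (0.84). It was also positive for Cox5a (0.69), Cad (0.67), Syn1 (0.64), Jund (0.63), Rab3a (0.59), Grin1 (0.58), Csf1r (0.48), Apoe (0.48) and Aldoc (0.31).

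The difference was negative for the myelin and oligodendrocyte genes Tspan2 (-2.03), Mal (-1.76), Mbp (-0.97) and Apod (-0.55), and for the vascular genes Slco1a4 (-1.62) and Flt1 (-0.83). It was negative as well for Gpr174 (-2.42), Slc38a11 (-2.20), Lsm5 (-1.72), Rpl22l1 (-1.60), Ogn (-1.56), Pvalb (-1.34), Ddx3y (-1.11), Aqp4 (-1.02), P2ry12 (-0.94), Snhg11 (-0.81) and Hsp90b1 (-0.45). The stress state and the header division change together in this comparison and cannot be told apart.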

How the results depend on the processing

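The difference in overall rate, 0.0203 percentage points, was 0.0186 to 0.0218 with any 1 library left out. As the median over intervals it was 0.0032 (exact p = 0.0794). With a replicate block it was 0.0213 (exact p = 0.125, the smallest that 4 pairs allow). Same-numbered libraries did not deviate together (correlations -0.29 to 0.11), so the numbers do not pair them. The block also gave 667 higher and 8 lower intervals, and 4116 higher and 4080 lower genes.

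The 733 higher intervals were 594 to 750 with 1 library left out. The 17 lower ones were 9 with DESeq2, 10 with a minimum of 10000 covered T positions, and 7 to 19 with 1 library left out (7 without the third DMSO library, 11 without the first labelled one). By converted reads Snx22 turned to 0.35. Against a 1.5-fold threshold 367 genes were higher and 437 lower, fewer by construction. With 1 library left out there were 4207 to 4457 higher and 4120 to 4329 lower genes. The log2 fold changes of Bdnf (-0.054), Cux2 (-0.17) and Per1 (-0.062) turned with 3′ UTR reads. The calls of Slc32a1, Cox5a and Adra1d were among those lost with these reads. The baseline minus acute-stress difference had 3 higher and 17 lower genes with DESeq2. The causes were not tested, except where stated. Intervals near the minimum coverage rest on few conversions per library, so a rate that missed the threshold there does not show an absence of labelling.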
